A study of Mus musculus with 6 samples.

Results

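Molecular chaperones are described here in primary mouse vascular smooth muscle cells, the muscle cells of the arterial wall, after knockdown of Sirt7, a deacylase of the nucleolus. The genes were chosen by symbol: heat shock proteins of the Hspa, Hspb, Hspd, Hspe, Hsph and Hsp90 families, J proteins (Dnaja, Dnajb, Dnajc), subunits of the chaperonin CCT (Tcp1 and Cct), the BAG factors and the heat shock factor Hsf1. The endoplasmic reticulum chaperones Hspa5, Hsp90b1, Dnajb9, Dnajb11 and Dnajc3 were left out of the set. It holds 70 genes with 153 transcripts, of 11808 genes with 23242 transcripts in all.

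The cells came from wild-type male C57BL/6 mice. The growth protocol's entry on the animals was read as 12 mice aged 6 weeks, and the libraries are not tied to animals in it. Cultures in normal growth medium (α-MEM with fetal bovine serum) were transfected with 20 nM scrambled siRNA (siScrambled) or 20 nM siRNA that targets Sirt7 (siSirt7) with the same transfection reagent, so the controls were transfected too. RNA was taken after 48 h and sequenced as mRNA, with 3 libraries per group. Whether each library had its own cell isolation is not stated in the labels. The p-values therefore rest on library-to-library spread, part or all of which may be technical.

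Levels are FPKM (fragments scaled by transcript length and library size), summed over the listed transcripts of a gene. Library totals lay between 321944 and 333683 FPKM, and the depth in reads is unknown. A difference is the log2 fold change of siSirt7 against siScrambled, taken on log2(FPKM + 1). The added 1 shrinks the changes of genes at low FPKM. A gene is called higher or lower at an adjusted p under 0.05 from limma over all 10854 genes whose mean reached 1 FPKM, and adjusted p-values are from that fit unless a transcript or a left-out library is named. The targeted gene, Sirt7, was at 4.35, 3.55 and 4.48 FPKM in the siScrambled libraries and at 0.96, 1.25 and 0.36 FPKM in the siSirt7 libraries. Each knockdown library lay below every control library (log2 fold change -1.49, SE 0.20, limma adjusted p = 0.00388).

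Of 7 smooth muscle markers all were measured, at a summed level of 2777.1 to 2816.4 FPKM with siScrambled and 2437.5 to 2645.1 FPKM with siSirt7, and 3 (Tagln, Cnn1, Smtn) were lower. The 5 endothelial and 4 lymphocyte markers were not among the genes analysed here, and the macrophage markers summed to 2.12 to 3.11 and 2.84 to 3.91 FPKM. Of 4 fibroblast markers, Pdgfra and Dpt were tested and both lower, with sums over the list of 37.10 to 38.72 and 27.57 to 30.64 FPKM. Mesothelial markers summed to 95.19 to 103.5 and 84.53 to 92.50 FPKM, with Upk3b lower. The part of these shifts in the chaperone results was not tested. In such bulk RNA, fewer cells of a type and less RNA per cell cannot be told apart.

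Chaperones bind unfolded or newly made proteins and help them fold. HSP70 works with J proteins, which deliver clients and start its ATP cycle, and with exchange factors such as the HSP110 and BAG proteins, which make it let go of ADP. HSP90 takes over clients near their final shape, the ring-shaped chaperonin CCT folds actin and tubulin, and the Hspd1 and Hspe1 proteins form the corresponding chamber of mitochondria. Under proteotoxic stress HSF1 binds heat shock elements, which are GAA and TTC units in alternating order, and switches on many of these genes. In smooth muscle, small heat shock proteins also bind the contractile and cytoskeletal apparatus.

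The chaperone genes did not move as 1 block. The mitochondrial chaperones rose, with Hspd1 at 1.63-fold, and so did 4 of 7 CCT subunits, the J proteins Dnaja1 and Dnaja2, and the small heat shock proteins Hspb1 and Hspb8. Stress-type HSP70 genes (Hspa1a, Hspa1b), the smooth muscle small heat shock protein Hspb6 and the J protein genes Dnajb2, Dnajb4 and Dnajb14 fell. Hsf1, both cytosolic HSP90 genes and all 6 BAG factors were not called.

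Of the 70 genes, 69 passed the level filter, and Hspa12b (means 0.86 and 0.51 FPKM) did not. Of these 69, 29 were called (42.0%), 19 higher (27.5%) and 10 lower (14.5%). Over all tested genes 25.2% were called, 12.7% higher and 12.5% lower. The counts by role given below stand against these shares. The median log2 fold change was 0.06 for the chaperone genes and -0.005 for all tested genes. The library groups did not overlap for 39 of the 69 genes, against 43.9% of all tested genes. An unadjusted p under 0.05 was reached by 38 of the 69 (55.1%), against 37.9% of all tested genes. The log2 fold change was beyond 0.5 in size for 6 of the 69 chaperone genes (Hspd1, Dnajc30, Hspa13, Hspb6, Dnajb2 and Dnajb14), with Dnajc24 just inside that size. Over all tested genes it was so for 1218 of 10854, so changes of this size were not more frequent among the chaperone genes.

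**Figure D1:**
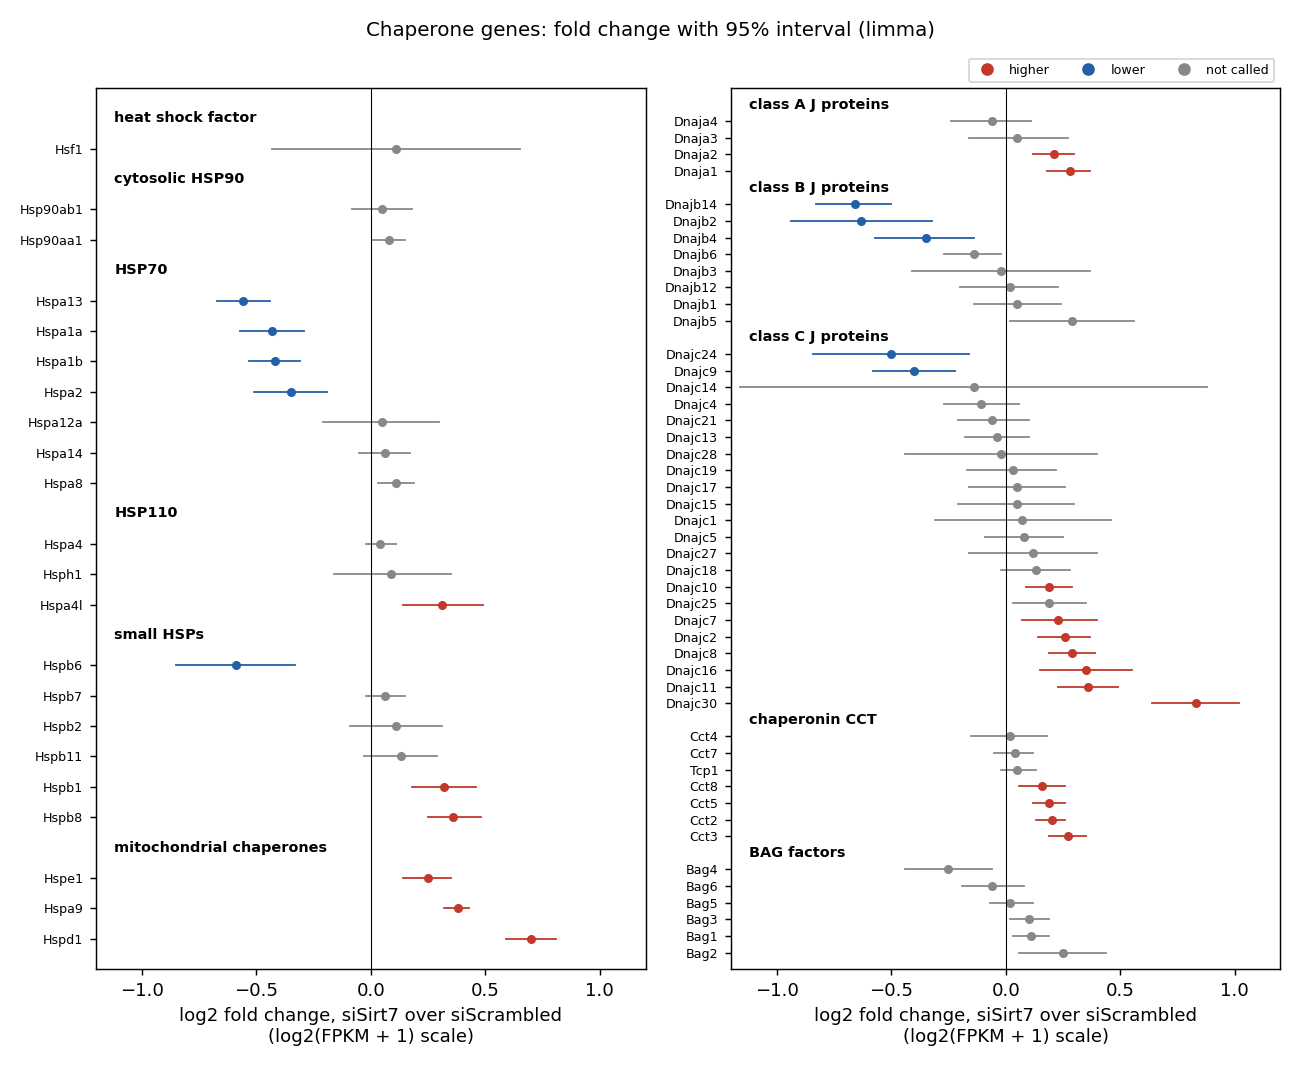
Log2 fold change (siSirt7 over siScrambled, log2(FPKM + 1) scale) of the 69 tested chaperone genes by role, as points with the 95% interval from limma. Red points are the 19 genes called higher, blue the 10 called lower and grey the 40 not called. The 3 mitochondrial chaperones lie to the right of 0, and 4 of 7 HSP70 genes to the left with intervals that do not reach 0. The 4 include the near-identical Hspa1a and Hspa1b, which do not count as separate observations.

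Levels of the called genes differed by direction. The 19 higher genes had a median siScrambled mean of 72.38 FPKM, and 15 of them were at 20 FPKM or more. The 10 lower genes had a median of 11.59 FPKM, and 9 of them were under 20 FPKM, all but Dnajb4. Summed over the 70 genes, the level was 4389.5 ± 74.24 FPKM with siScrambled and 4824.0 ± 40.15 FPKM with siSirt7 (SD, n = 3), 1.10 times as high. In the siScrambled libraries the order of levels was led by Hsp90ab1 (726.7 FPKM), Hspa8 (398.6 FPKM) and Hsp90aa1 (246.5 FPKM). Hspe1 (203.1 to 207.7 FPKM) and Hspa9 (203.2 to 204.1 FPKM) came next and did not differ beyond their spread. In all, 14 genes were above 100 FPKM and 12 below 5 FPKM.

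**Figure D2:**
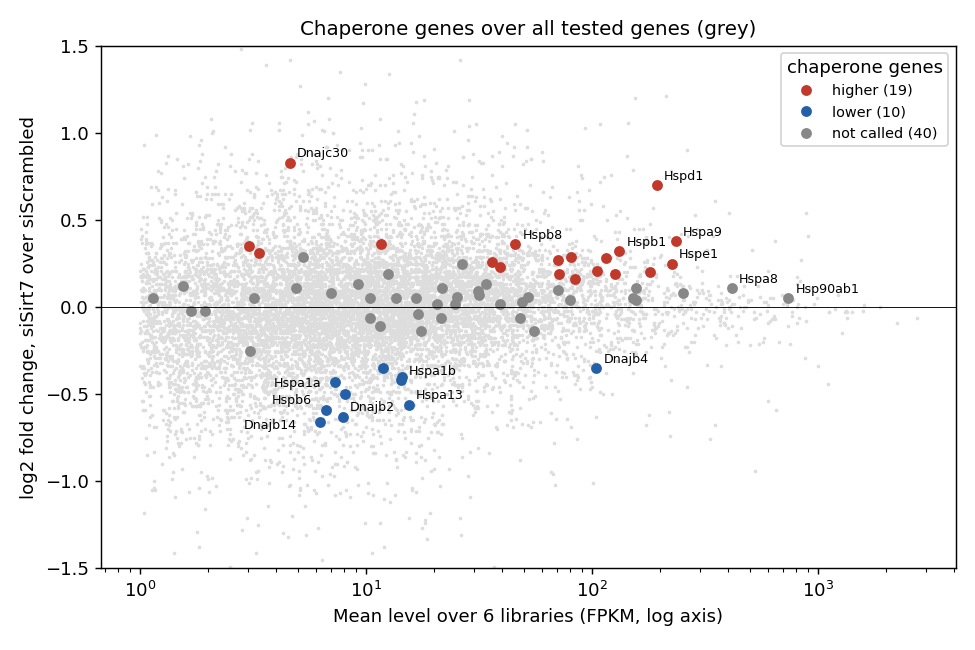
Mean level over the 6 libraries (FPKM, log axis) against the log2 fold change, with the 69 tested chaperone genes in colour over all tested genes in light grey; 24 tested genes beyond ±1.5 are outside the axis. Blue points lie under 20 FPKM except Dnajb4. Most red points lie further right, but those of Dnajc16, Hspa4l and Dnajc30 lie to the left of every blue point.

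The 3 mitochondrial chaperones all rose. Hspd1 (ENSMUSG00000025980.14, chromosome 1, 55077835 to 55088243, minus strand, GRCm38), the HSP60 barrel of the matrix, was at 149.5, 140.8 and 151.1 FPKM in the siScrambled libraries and at 228.3, 244.6 and 246.5 FPKM in the siSirt7 libraries. The lowest knockdown library was well above the highest control (log2 fold change 0.70, SE 0.04, limma adjusted p = 0.000326). Hspe1 (chromosome 1, 55088132 to 55091307, plus strand), the HSP10 lid of that barrel, was at 207.7, 204.8 and 203.1 FPKM and at 254.6, 246.9 and 230.0 FPKM. It rose less than its partner, 1.19-fold against 1.63-fold, and the difference between these changes was not tested (log2 fold change 0.25, adjusted p = 0.00866). Hspa9, the matrix HSP70 that also pulls proteins through the import channel, was at 204.1, 203.2 and 203.3 FPKM and at 265.5, 264.4 and 264.8 FPKM. Its libraries were nearly identical within each group (log2 fold change 0.38, SE 0.02, adjusted p = 0.000297). The summed level of the 3 genes was 555.8 ± 6.43 and 748.5 ± 7.28 FPKM (SD, n = 3).

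Hspd1 and Hspe1 stand head to head, and their deposited loci overlap by 112 bases. The sources used here do not give how reads of such an overlap were assigned. The overlap comes from the minor transcripts Hspd1-202 and Hspd1-203. The main one, Hspd1-201, ends short of Hspe1 and had 133.6 and 220.2 FPKM when tested alone (log2 fold change 0.72, adjusted p = 0.000752).

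Promoter letters of 4 genes are printed because they come from groups that rose or fell and hold heat shock element letters. Each is the RefSeq window (GRCm38.p6) from 250 bases before to 50 bases after an annotated start, 5′ to 3′ on the gene's strand. Capitals mark the 2-unit cores GAANNTTC or TTCNNGAA and runs of 3 units with at most 1 of 9 fixed letters different. The Hspe1 window also covers the same run in one of the 2 windows of Hspd1, where it reads on the other strand. The printed Cct2 window is that of the minor transcripts Cct2-202 and Cct2-205 (0.786% and 1.53% of the gene's siScrambled level). Cct2 has another window, nearer the start of its main transcript Cct2-201 (97.4%). That window holds neither a core nor such a run, and its best match differs at 3 of 9 letters.
Hspe1, chr1:55087898-55088197, plus strand: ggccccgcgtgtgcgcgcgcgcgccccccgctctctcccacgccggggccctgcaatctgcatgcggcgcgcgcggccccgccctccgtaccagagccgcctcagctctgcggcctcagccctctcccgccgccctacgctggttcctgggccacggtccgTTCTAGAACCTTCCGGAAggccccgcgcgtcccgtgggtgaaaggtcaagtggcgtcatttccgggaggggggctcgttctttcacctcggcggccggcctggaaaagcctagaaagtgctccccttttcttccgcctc
Hspb1, chr5:135887669-135887968, plus strand: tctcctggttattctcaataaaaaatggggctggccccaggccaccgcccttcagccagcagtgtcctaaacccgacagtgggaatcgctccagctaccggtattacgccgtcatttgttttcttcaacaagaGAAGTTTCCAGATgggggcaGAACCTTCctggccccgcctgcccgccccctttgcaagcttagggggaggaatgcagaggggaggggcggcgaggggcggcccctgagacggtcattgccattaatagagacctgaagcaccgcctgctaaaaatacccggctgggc
Hspa1b, chr17:34959189-34959488, minus strand: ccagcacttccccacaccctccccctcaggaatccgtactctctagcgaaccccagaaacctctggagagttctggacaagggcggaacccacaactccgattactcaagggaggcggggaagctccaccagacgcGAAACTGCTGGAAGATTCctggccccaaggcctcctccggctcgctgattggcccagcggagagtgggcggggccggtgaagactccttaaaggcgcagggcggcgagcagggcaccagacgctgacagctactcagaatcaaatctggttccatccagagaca
Cct2, chr10:117063326-117063625, minus strand: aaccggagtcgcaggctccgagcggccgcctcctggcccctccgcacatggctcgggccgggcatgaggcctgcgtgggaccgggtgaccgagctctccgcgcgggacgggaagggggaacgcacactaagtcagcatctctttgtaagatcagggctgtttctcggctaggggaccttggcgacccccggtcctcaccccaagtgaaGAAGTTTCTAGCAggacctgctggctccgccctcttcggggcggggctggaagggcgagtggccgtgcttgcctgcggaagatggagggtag

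The Hspe1 window holds an unbroken run of 18 bases in which TTC and GAA units alternate. Hspa1b has a run of the same length with 1 letter changed. A script searched both strands of each window for 3 units, GAA, TTC and GAA or TTC, GAA and TTC, each 2 free bases apart, which can overlap the 2-unit cores. Windows were found for 56 of the 70 genes. With at most 1 of 9 letters different, 15 of the 56 genes (26.8%) held a match, against 542 of 8495 tested genes with a window (6.38%) and 2202 of all 27025 genes of the table (8.15%). Exact matches were in 4 genes: Hspd1, Hspe1, Hsph1 and Dnajb6. The 2-unit core was in 17 of 56 (30.4%), against 14.0% of tested genes and 17.0% of all genes of the table.

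Matches with at most 1 letter different were found among genes of both directions. They were in 7 of 15 higher genes with a window (Hspd1, Hspe1, Hspb1, Cct2, Cct5, Dnaja1, Dnajc8), in 4 of 9 lower genes (Hspa1a, Hspa1b, Hspb6, Dnajb4) and in 4 of 31 genes not called. The windows of Hspa1a and Hspa1b are nearly identical, so their matches do not count as separate observations. A gene was counted if any of its windows matched. The matched window of Cct2 is that of minor transcripts. That of Dnaja1 lies near Dnaja1-201 (22.7% of its siScrambled level), and its windows nearer the main Dnaja1-202 (58.7%) differ at 3 letters. Allowing 2 different letters, 43.3% of tested genes and 57.1% of the chaperone genes matched. A match describes letters and does not show that HSF1 binds there. Matched genes were on both sides of 0 in the plot of fold changes by role.

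Hsf1, the main heat-inducible activator of these genes, was at 4.31, 5.58 and 3.94 FPKM with siScrambled and at 3.41, 6.60 and 5.49 FPKM with siSirt7. The groups overlapped (log2 fold change 0.11, SE 0.22, adjusted p = 0.751), and its protein activity is not measured by RNA. Hsp90ab1, the constitutive cytosolic HSP90, was at 706.9, 703.8 and 769.5 FPKM and at 796.8, 718.4 and 739.5 FPKM (log2 fold change 0.05, adjusted p = 0.553). The inducible Hsp90aa1 was at 245.5, 246.2 and 247.7 FPKM and at 259.5, 269.2 and 253.7 FPKM. Its groups did not overlap, but the gap was small (log2 fold change 0.08, adjusted p = 0.104). Of 3 tested heat shock factor genes and regulators outside the set (Hsf2, Hsf4, Hsbp1), 0 were called by limma, and 1 had an unadjusted p under 0.05 (Hsbp1, log2 fold change -0.09, adjusted p = 0.0702).

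The constitutive cytosolic Hspa8, which uncoats clathrin and serves autophagy, was at 401.8, 391.6 and 402.4 FPKM and at 447.1, 419.9 and 424.4 FPKM. It was higher in all 3 knockdown libraries but not called (log2 fold change 0.11, adjusted p = 0.0534, and from 0.0445 to 0.166 over the alternatives). Of 7 tested HSP70 genes, 4 fell and 0 rose, at a median log2 fold change of -0.35. They are not 4 separate falls: Hspa1a and Hspa1b may rest on shared reads, and the main Hspa2 transcript alone was not called (both below). The 4 are at low levels, so the summed level of the group was 482.1 ± 5.14 and 498.5 ± 15.88 FPKM (SD, n = 3). Hspa8 and Hspe1 are known to have processed pseudogenes, so reads shared with such copies make their levels less certain.

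Hspa1b (chromosome 17, 34956436 to 34959238, minus strand), a stress-inducible HSP70, was at 16.46, 16.24 and 16.83 FPKM and at 12.26, 11.77 and 12.21 FPKM. All knockdown libraries were lower (log2 fold change -0.42, SE 0.05, adjusted p = 0.00201). Its neighbour Hspa1a (34969190 to 34972156, minus strand) was at 8.54, 8.26 and 8.59 FPKM and at 6.25, 5.85 and 6.01 FPKM (log2 fold change -0.43, adjusted p = 0.00388). The genes lie 9951 bases apart, and their coding sequences differ at 11 of 1929 bases (99.4% identical). Their level ratio was 1.93 to 2.03 in the 6 libraries, so their values may rest on shared reads and do not count as separate observations. The promoter windows differ at 4 of 300 bases and hold the same heat shock element letters.

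Hspa13 (ENSMUSG00000032932.14, chromosome 16, 75755190 to 75766821, minus strand), a microsome-associated HSP70 relative, was at 18.07, 18.41 and 19.29 FPKM and at 12.31, 12.22 and 12.34 FPKM. The gap between the groups was far wider than the spread in either of them (log2 fold change -0.56, SE 0.05, adjusted p = 0.000778). Hspa2, known for its role in testis, was at 12.60, 14.48 and 13.13 FPKM and at 10.57, 10.21 and 10.04 FPKM (log2 fold change -0.35, adjusted p = 0.0119). Its main transcript tested alone was not called (adjusted p = 0.691), as described below. The other HSP70 genes, Hspa14 and Hspa12a, had log2 fold changes of 0.06 and 0.05.

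Among the HSP110 exchange factors, the most abundant, Hspa4, was at 152.4, 154.6 and 154.1 FPKM and at 156.2, 159.5 and 159.7 FPKM (log2 fold change 0.04, adjusted p = 0.277). Hspa4l was at 3.02, 2.80 and 2.87 FPKM and at 4.02, 3.81 and 3.69 FPKM. It was called higher (log2 fold change 0.31, adjusted p = 0.0253), but not without siScrambled 1, 2 or 3 or siSirt7 1 or 2, with adjusted p from 0.0553 to 0.0796. The stress-inducible Hsph1, whose promoter window holds exact heat shock element letters, had means of 30.02 and 32.18 FPKM (adjusted p = 0.568).

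Most small heat shock proteins bind clients without ATP and keep them from aggregating. Of the 6 genes grouped here by their Hspb symbol, 2 rose and 1 fell. Hspb1 (HSP27; chromosome 5, 135887919 to 135889563, plus strand), which in muscle cells binds actin filaments, was at 115.6, 114.0 and 121.4 FPKM and at 156.1, 147.5 and 135.8 FPKM. Hspb8, the partner of the BAG factor Bag3 in selective autophagy of damaged muscle proteins, was at 40.68, 40.50 and 38.33 FPKM and at 53.76, 51.93 and 49.05 FPKM. Both rose in all knockdown libraries (log2 fold changes 0.32 and 0.36, adjusted p = 0.00979 and 0.00351). Hspb6 (HSP20), a protein linked to smooth muscle relaxation, was at 8.06, 7.10 and 9.32 FPKM and at 5.22, 5.39 and 4.61 FPKM. It went the other way (log2 fold change -0.59, SE 0.11, adjusted p = 0.0110). Hspb2, Hspb7 and Hspb11 were not called, with log2 fold changes from 0.06 to 0.13. The related crystallin Cryab, outside the set, rose (means 151.9 and 196.8 FPKM, log2 fold change 0.37, adjusted p = 0.00331).

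J proteins of classes A and B bind clients and hand them to HSP70, and 2 of 4 class A genes rose. Dnaja1 was at 102.9, 108.6 and 100.1 FPKM and at 125.2, 124.8 and 127.5 FPKM, and Dnaja2 at 96.90, 97.78 and 97.31 FPKM and at 108.4, 117.4 and 112.4 FPKM. These are the abundant class A genes, and both rose (log2 fold changes 0.28 and 0.21, adjusted p = 0.00409 and 0.00930). Dnaja3, a mitochondrial J protein, and Dnaja4 had log2 fold changes of 0.05 and -0.06 and were not called.

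Of 8 class B genes, 0 rose and 3 fell. Dnajb14 (chromosome 3, 137867675 to 137916557, plus strand), a J protein anchored in the endoplasmic reticulum membrane, was at 8.15, 7.57 and 7.87 FPKM and at 4.47, 4.43 and 4.87 FPKM (log2 fold change -0.66, SE 0.07, adjusted p = 0.00143). Its knockdown libraries were 0.58 times the controls on average. Dnajb2, which sorts clients to the proteasome, was at 11.46, 9.38 and 8.53 FPKM and at 6.88, 5.62 and 5.43 FPKM (log2 fold change -0.63, adjusted p = 0.0160). Its call was lost without siSirt7 2 or siSirt7 3, with adjusted p of 0.0561 and 0.0512, and with its main transcript alone (0.289).

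Dnajb4, the most abundant of the class and the only lower gene of the set above 20 FPKM, was at 110.2, 113.1 and 128.5 FPKM and at 84.19, 101.5 and 89.32 FPKM (log2 fold change -0.35, adjusted p = 0.0321). The call was lost without any of siScrambled 1, 2 and 3, siSirt7 1 and siSirt7 3, with adjusted p from 0.0520 to 0.0871. Dnajb1, the classic heat-inducible HSP40, was at 13.35, 12.54 and 14.17 FPKM and at 15.19, 13.40 and 13.03 FPKM, and the groups overlapped (log2 fold change 0.05, adjusted p = 0.680). Summed, class B was at 233.3 ± 7.02 and 196.9 ± 12.53 FPKM and class A at 228.1 ± 3.48 and 265.7 ± 6.05 FPKM (SD, n = 3). The sums thus lay on opposite sides, class A higher and class B lower in the knockdown libraries, with Dnajb4 giving 117.3 and 91.68 FPKM of the class B means.

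Class C J proteins share the J domain but work in many places of the cell. Of 22 genes, 7 rose (31.8%), 2 fell (9.09%) and 13 were not called. Dnajc30 (chromosome 5, 135064202 to 135065862, plus strand), a protein of the mitochondrial inner membrane, was at 3.28, 2.78 and 3.01 FPKM and at 6.41, 5.93 and 6.11 FPKM. It had the highest log2 fold change of the 69 genes (0.83, SE 0.08, adjusted p = 0.00110) and a 2.03-fold higher mean. Dnajc11, which associates with the cristae-organising complex of mitochondria, was at 9.80, 10.52 and 9.81 FPKM and at 13.17, 12.85 and 13.51 FPKM (log2 fold change 0.36, adjusted p = 0.00570). Both mitochondrial genes were above the controls in all libraries. The J proteins of the mitochondrial import motor, Dnajc19 and Dnajc15, had log2 fold changes of 0.03 and 0.05 and were not called.

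Dnajc8, a spliceosome-associated J protein, was at 74.59, 73.57 and 68.99 FPKM and at 87.40, 91.13 and 87.05 FPKM (log2 fold change 0.29, adjusted p = 0.00484). Dnajc2, the ribosome-associated J protein, was at 32.66, 32.27 and 33.61 FPKM and at 41.66, 38.25 and 38.39 FPKM (log2 fold change 0.26, adjusted p = 0.0111). Its ribosomal partner Hspa14 was not called (adjusted p = 0.380). Dnajc10, a disulfide reductase of the endoplasmic reticulum, was at 68.26, 65.54 and 65.24 FPKM and at 72.16, 76.92 and 77.97 FPKM (log2 fold change 0.19, adjusted p = 0.0215). Dnajc7, which recycles clients between HSP90 and HSP70, was at 37.16, 35.26 and 34.85 FPKM and at 42.18, 45.93 and 38.86 FPKM (log2 fold change 0.23, adjusted p = 0.0479). Dnajc16 was at 2.68, 2.34 and 2.61 FPKM and at 3.51, 3.75 and 3.28 FPKM (log2 fold change 0.35, adjusted p = 0.0280).

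Of these calls, 3 were close to the threshold and were lost when any 1 of several libraries was left out. They were also lost with all libraries kept and the replicate number as a block (limma adjusted p 0.0753 for Dnajc10, 0.072 for Dnajc7 and 0.0863 for Dnajc16). That of Dnajc10 was lost without siScrambled 2 or 3 or siSirt7 2 or 3 (adjusted p from 0.0564 to 0.0735). That of Dnajc7 was lost without siScrambled 1, 2 or 3 or siSirt7 1 or 2 (0.0777 to 0.128), and that of Dnajc16 without the same 5 libraries (0.0577 to 0.0854).

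Of the lower genes, Dnajc9, which escorts histones and is known as a gene of dividing cells, was at 14.84, 17.26 and 17.58 FPKM and at 11.77, 12.51 and 12.52 FPKM (log2 fold change -0.40, adjusted p = 0.0123). Dnajc24, a factor in diphthamide synthesis on elongation factor 2, was at 7.74, 11.42 and 9.68 FPKM and at 5.78, 6.89 and 6.75 FPKM. It was close to the threshold (log2 fold change -0.50, adjusted p = 0.0478) and was lost without siScrambled 2 or 3 or any of siSirt7 1, 2 and 3 (0.0895 to 0.126). Dnajc14 spread widely within both groups, from 10.24 to 31.03 FPKM with siScrambled and from 11.78 to 22.72 FPKM with siSirt7, and its interval is the widest in the plot of fold changes. Over all 34 J proteins, 9 rose (26.5%) and 5 fell (14.7%), at a median log2 fold change of 0.05. Of all tested genes, 12.7% were higher and 12.5% lower, so the lower share of the J proteins was close to that of all genes.

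The CCT ring folds actin and tubulin, and 7 of its subunits were measured here. Cct2 was at 169.8, 164.0 and 169.4 FPKM and at 195.0, 192.1 and 189.6 FPKM, Cct3 at 63.21, 64.95 and 63.28 FPKM and at 76.21, 79.11 and 76.02 FPKM, and Cct5 at 116.3, 119.8 and 117.6 FPKM and at 135.4, 131.8 and 137.1 FPKM. In each of the 3 the groups were clearly apart (log2 fold changes 0.20, 0.27 and 0.19, adjusted p = 0.00497, 0.00260 and 0.00629). Cct8 was at 82.17, 78.63 and 78.03 FPKM and at 87.99, 92.86 and 86.43 FPKM (log2 fold change 0.16, adjusted p = 0.0327). Its call was lost without siScrambled 2 or 3 or siSirt7 1 or 2 (0.0657 to 0.102). Tcp1, the founding subunit, was at 149.4, 150.2 and 145.8 FPKM and at 155.1, 150.0 and 157.3 FPKM and was not called (adjusted p = 0.264), nor were Cct7 (0.517) and Cct4 (0.882).

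The 7 log2 fold changes ran from 0.02 to 0.27, with a median of 0.16, but those of Cct4 and Cct7 turned to -0.05 and -0.01 with quantile normalization, and that of Cct4 to -0.01 and -0.05 without siScrambled 1 and without siSirt7 1. The ring holds its subunits in equal number. Their RNA levels ranged from 38.67 (Cct4) to 167.7 FPKM (Cct2) with siScrambled. The summed level was 695.0 ± 3.16 and 767.3 ± 3.42 FPKM (SD, n = 3), with no overlap between the groups.

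**Figure D3:**
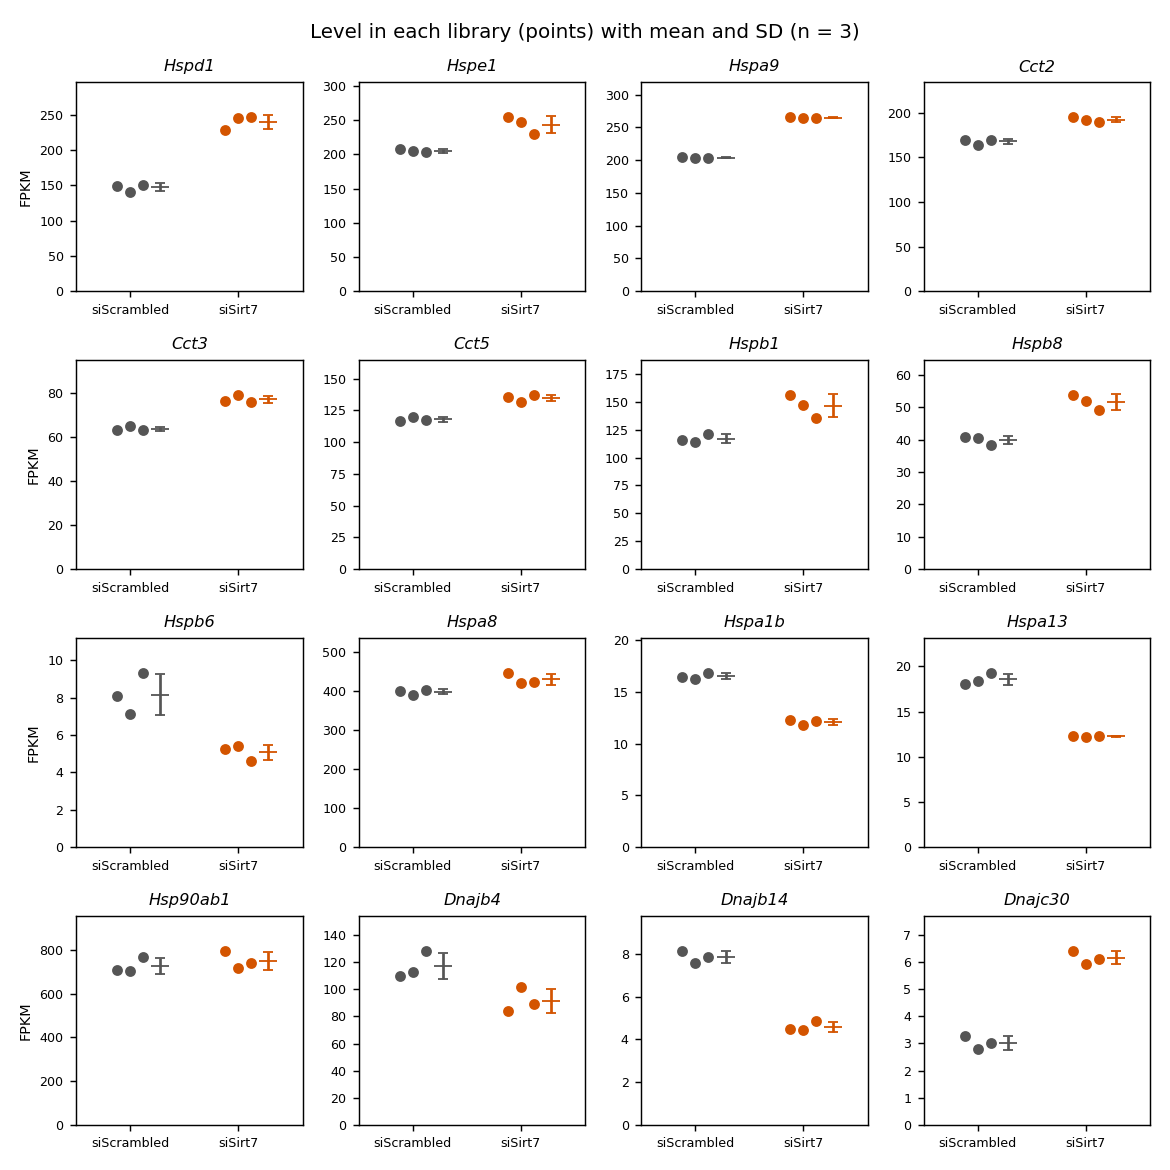
Level (FPKM, linear axes from 0) of 16 chaperone genes in each library as points, with mean and SD beside them (n = 3 per group, siScrambled in grey and siSirt7 in orange). Points of the groups do not overlap except for Hsp90ab1, and the knockdown points are lower for Hspb6, Hspa1b, Hspa13, Dnajb4 and Dnajb14.

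BAG factors such as Bag1 and Bag3 are nucleotide exchange factors that steer HSP70 clients to other fates, Bag1 to the proteasome and Bag3 to autophagy. Of the 6 BAG genes, 0 were called by limma, although 4 had an unadjusted p under 0.05 and 4 had groups that did not overlap. Over all tested genes 37.9% had such a p and 43.9% had groups that did not overlap. Bag1, the most abundant, was at 147.6, 151.1 and 151.5 FPKM and at 164.4, 156.9 and 165.1 FPKM (log2 fold change 0.11, adjusted p = 0.0503, and from 0.0437 to 0.989 over the alternatives). Bag3, a heat shock target, was at 67.11, 67.17 and 68.88 FPKM and at 70.74, 72.37 and 75.27 FPKM (log2 fold change 0.10, adjusted p = 0.0834). Bag2 had a log2 fold change of 0.25 and Bag4 of -0.25 (adjusted p = 0.0621 and 0.0599).

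Partner genes outside the set, from lists of known chaperone partners, were described in the same way. Of 17 HSP90 co-chaperones, 7 rose and 1 fell, at a median log2 fold change of 0.07. That is 47.1% called, against 25.2% of all tested genes. Ppid, a cyclophilin of the HSP90 complex, rose most (15.57 to 24.19 FPKM on average, log2 fold change 0.60, adjusted p = 0.00370). The others were Tomm70a (0.28), Ahsa1 (0.27), Ptges3 (0.27), Cdc37 (0.18), Sugt1 (0.18) and Nudc (0.15), and the glucocorticoid-responsive immunophilin Fkbp5 fell (-0.37). The called risers thus include the kinase loader Cdc37, the ATPase activator Ahsa1 and the p23 gene Ptges3, beside HSP90 genes that were not called.

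The shares called below stand against 25.2% of all tested genes. Of 11 partners of HSP70, 4 rose and 1 fell (45.5% called). St13 (0.27), Sgta (0.24), Ubqln2 (0.20) and the mitochondrial exchange factor Grpel1 (0.19) rose, and the endoplasmic reticulum exchange factor Sil1 (-0.15) fell. Of 6 mitochondrial folding and AAA genes, 2 rose (33.3% called), the HSP90 paralog Trap1 (0.26) and the matrix protease Lonp1 (0.36). Of 12 prefoldin genes and CCT helpers, Ubxn1 (0.26) and Pfdn1 (0.20) rose and the prefoldin subunit Vbp1 (-0.48) fell. That is 25% called, close to the share of all tested genes. Among 13 actin and tubulin genes, whose products CCT folds, Tuba4a (1.00), Tubb2b (0.56) and Tuba1a (0.32) rose and Tubb6 (-0.20) fell. That is 30.8% called, with a median log2 fold change of 0.06 over the 13. Tubulin genes are alike in sequence, so their split of reads is uncertain. Of the 5 endoplasmic reticulum chaperones left out of the set, Dnajc3 rose (0.18) and Hsp90b1 fell (-0.22), which is 40% called. Hspa5 was at -0.13 (limma adjusted p = 0.136).

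Of the 70 genes, 31 have 1 listed transcript and 39 have several, up to 10 for Bag6. Of 132 chaperone transcripts tested, 23 were called (17.4%), 17 higher (12.9%) and 6 lower (4.55%), against 8.99% of all 17414 transcripts tested, 4.68% higher and 4.31% lower. There were 0 chaperone genes with calls in both directions. Sums and single transcripts went apart in a few genes, which are shown because they bear on their calls. Hsp90aa1-201 was at 193.0, 1.46 and 213.8 FPKM in the siScrambled libraries, and Hsp90aa1-202 at 46.70, 244.8 and 33.52 FPKM. In siScrambled 2 nearly all of the gene's level was thus given to the other transcript, while the gene sum stayed at 246.2 FPKM.

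For Hspb1, the second transcript was at 31.00, 0.76 and 25.43 FPKM with siScrambled and at 0.45, 0.57 and 0.96 FPKM with siSirt7. The main one, Hspb1-201, was at 84.65, 113.3 and 96.01 FPKM and at 155.6, 146.9 and 134.9 FPKM (log2 fold change 0.58, adjusted p = 0.0430). For Cct8, the rise of the sum came from Cct8-203, at 1.06, 1.01 and 1.77 FPKM and at 12.17, 14.95 and 10.70 FPKM (log2 fold change 2.58, adjusted p = 0.00207). The main Cct8-201 had means of 72.62 and 73.25 FPKM (adjusted p = 0.867). For Hspa2, Hspa2-201 was at 2.25, 0.00 and 3.52 FPKM and was listed at 0 or near 0 in the knockdown libraries, while Hspa2-202 had means of 11.48 and 10.27 FPKM. The program that divided fragments between transcripts is not given here.

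**Figure D4:**
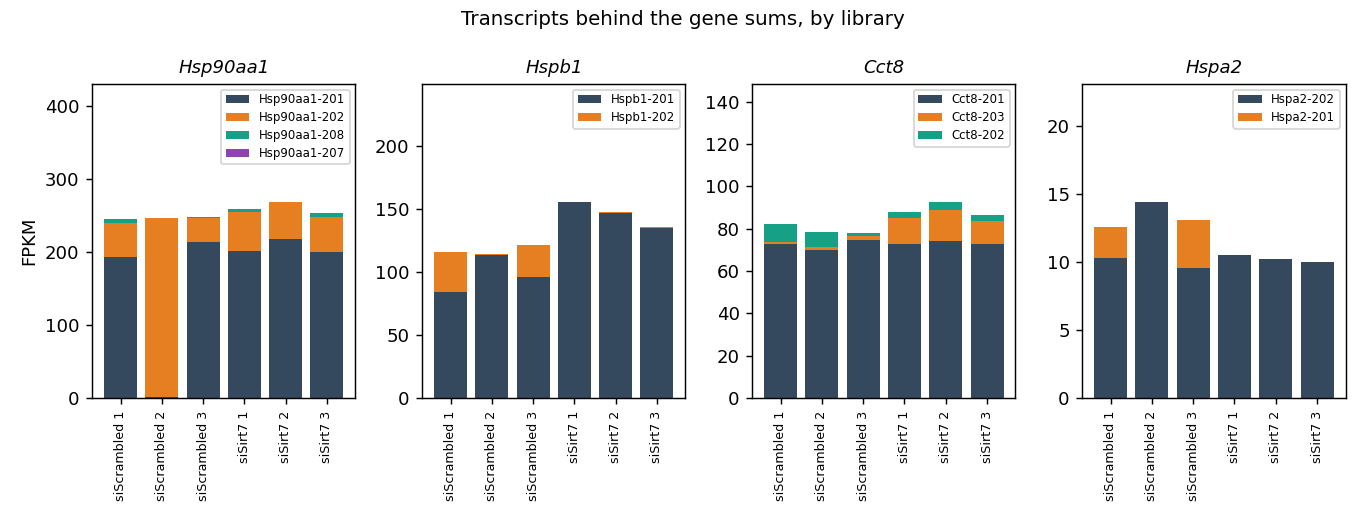
Level (FPKM, linear axis from 0) of each listed transcript of Hsp90aa1, Hspb1, Cct8 and Hspa2 in the 6 libraries, stacked to the gene sum. The Hsp90aa1 sum is steady although siScrambled 2 has 244.8 FPKM in Hsp90aa1-202, and in Cct8 the orange share of Cct8-203 is seen in the 3 siSirt7 libraries, at 10.70 to 14.95 FPKM.

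Words in the 3′ UTR were looked up as well. The words ATATGTA and TATGTAA had been picked in earlier work on these values for their tie to lower fold changes, and CGGAGAA for its tie to higher ones, so counts by word are descriptions and no support. The 3′ UTR (GENCODE vM21, GRCm38) of each gene's most abundant transcript was searched on the transcript strand only. ATATGTA or TATGTAA, which overlap in ATATGTAA, was in 19 of 67 chaperone genes with a 3′ UTR (28.4%) and in 2361 of 10313 tested genes (22.9%). Of the 19, 2 were higher and 5 lower, at a median log2 fold change of -0.02, and of the 48 without either word, 16 were higher and 5 lower, with a median of 0.11. Over all tested genes, 7.12% of genes with a word were higher and 25.3% lower, against 14.7% and 9.03% of those without.

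ATATGTA was in 15 chaperone genes, of which 33.3% were lower and 6.67% higher. Of all 1616 tested genes with this word, 29.6% were lower and 6.13% higher, which is close to those shares. Carriers that were not called are not printed. The sites of the 5 lower genes, and 1 of the only higher one, Hspa4l, are printed to show them in context. Each has 11 bases on either side, and capitals mark the word.
Hspa13, chr16:75755749-75755777, minus strand: aatactaagtaATATGTAatttattttat
Dnajb14, chr3:137914350-137914378, plus strand: cttttacactgATATGTAaaataaaaagg
Dnajb2, chr1:75245097-75245125, plus strand: agttacttgggATATGTAgttccaacccc
Dnajb4, chr3:152184699-152184727, minus strand: ttcttaagtgtATATGTAatatgtggaga
Dnajc24, chr2:105966835-105966863, minus strand: ttcagttttttATATGTAtctaaaatgta
Hspa4l, chr3:40794933-40794961, plus strand: catcatatataATATGTAataaaccagga

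In Hspa13, Dnajb14, Dnajb4 and Hspa4l the word is followed by A, so that TATGTAA is present too. The ends of the deposited Hspa13 transcript differ from those of vM21, and the site lies within the deposited gene. The Dnajb2 site lies in Dnajb2-210, with means of 5.08 and 4.06 FPKM, which was not called alone (limma adjusted p = 0.289). Part of the gene's fall lay in Dnajb2-204 (3.32 and 0.89 FPKM, adjusted p = 0.124), which ends before the site. The other 5 lower genes, Hspa1a, Hspa1b, Hspa2, Hspb6 and Dnajc9, hold neither word. CGGAGAA was in 2 chaperone genes, Dnajc30 and Hspa4l, both higher, and in 227 of all tested genes (2.20%), of which 32.6% were higher and 7.49% lower. The 3 class B J protein genes that fell hold ATATGTA, as do Dnajb6 and Dnajb12 of that class, which were not called (adjusted p = 0.0979 and 0.918). As the word was picked for its tie to lower fold changes, this overlap is a description and no support. The Dnajb6 sum joins transcripts that went apart. Dnajb6-203, in which the word was found, had means of 35.59 and 22.11 FPKM (log2 fold change -0.69, limma adjusted p = 0.0924). Dnajb6-201, which was not searched, was called higher (19.07 and 24.94 FPKM, log2 fold change 0.37, adjusted p = 0.034).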

How the data were processed

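The authors sequenced RNA of transfected vascular smooth muscle cells in 6 libraries, and the deposited table gives FPKM per annotated transcript and library. Per the submitters' processing notes, HISAT2 aligned the reads to mouse build GRCm38 (mm10). The sources used here give neither the program behind the FPKM nor its annotation release nor its handling of shared reads. Each listed transcript exceeds 0.5 FPKM on average in 1 group or both, and genes below that are not analysed here. A search over many trial depths found no clear steps of whole reads. At best 23.4% of the values lay within 0.05 reads of a whole number, where spacing alone gives 10% at any 1 depth. The search used transcript lengths of GENCODE vM21, and other lengths behind the FPKM could hide such steps. Neither depth nor counting error is therefore known.

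Groups come from the titles. Transcripts were summed to genes, and genes whose mean reached 1 FPKM were tested on log2(FPKM + 1) with limma 3.58.1 under R 4.3.3 (eBayes with trend and robust set), with Benjamini-Hochberg adjustment over all tested genes. The test was tried on simulated data. Tables and plots were made with Python 3.11.15. The genes, role groups, partner lists and markers were chosen with earlier results of these data known. Values in each library are given for every called gene, the most abundant gene of each role group and a fixed few others, and called partner genes are named. Replicate numbers did not pair the libraries: deviations of same-numbered libraries correlated at 0.007, 0.033 and -0.015. The alternatives changed the scaling (median of ratios, or quantiles), the filter (none, or 5 FPKM), the pseudocount (0.1 or 0.5), the limma options (neither trend nor robust), the samples (each library left out in turn), the design (replicate number as a block) and the unit (single transcripts instead of the sum, where a named gene's value is that of its most abundant one). Promoter windows are RefSeq's, and 3′ UTRs are GENCODE's.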

Additional observations from a re-analysis of the deposited data

How the results depend on the processing

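Under 15 alternatives between 22 and 30 chaperone genes were called, of 69 tested except with no filter (27 of 70) and with a mean of at least 5 FPKM (28 of 59). Of the 29 called genes, 19 kept their call and direction in all 15, and Dnajc30 in the 14 in which it was tested. The other 9 (Cct8, Dnajb2, Dnajb4, Dnajc10, Dnajc16, Dnajc24, Dnajc7, Hspa2, Hspa4l) kept their direction and lost the call in at least 1. Leaving out 1 library at a time left 22 to 25 called, 14 to 18 higher and 7 to 9 lower, among 1847 to 2217 called of all genes. With single transcripts tested in place of sums, 22 had at least 1 called transcript, 16 higher and 6 lower, against 1493 of all genes, and the most abundant Sirt7 transcript had a log2 fold change of -1.30 (limma adjusted p = 0.0697). The sign turned in at least 1 alternative for 19 of the 40 genes not called and for 0 of the 29 called. Among the genes not called whose library values are given, it turned for Hspa4 (-0.01, quantile normalization), Dnajb1 (-0.01 without siSirt7 replicate 1, and from -0.01 to 0.09 over the libraries left out), Hsf1 (-0.06 without siSirt7 replicate 2, and from -0.06 to 0.34) and Bag1 (-0.0038, most abundant transcript). The cause was not tested. With the replicate number as a block, 23 chaperone genes were called, 14 higher and 9 lower, and 1927 of all genes. Depth is unknown, so no limit from counting can be given.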
